A study of Mus musculus with 4 samples.

Results

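*Krt75* cells are the cells of 3 slides of mouse dorsal skin whose outline held at least 5 transcripts of *Krt75*, the keratin for which the companion layer of the hair follicle is best known. They were chosen by 3 genes: *Krt75* at 5 transcripts or more, *Krtap17-1*, a keratin-associated protein gene of the hair shaft, below 3, and *Shh*, the hedgehog ligand of the hair matrix, below 3. The rule found 2791 cells among the 363982 cells of the skin sections that held at least 10 transcripts (0.767%). The series held 426792 such cells in all, with 62782 on the buccal mucosa slide and 28 on the skin slides outside the sections. Another 94 cells passed the *Krt75* threshold and were set aside by *Krtap17-1* or *Shh*. Because these genes selected the cells, their values in them are given as a description and carry no test.

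The companion layer is a single sheet of flattened keratinocytes between the outer root sheath, the outermost epithelium of the follicle, and the inner root sheath, which encases the growing hair shaft. It moves upward together with the inner root sheath during the growth phase (anagen). It is known for *Krt75* and for the keratins of activated epithelium, *Krt6a*, *Krt16* and *Krt17*, which the outer root sheath and other follicle cells also make. In resting follicles (telogen) the inner bulge cells that hold the club hair are known for *Krt6a* as well. *Krt75* is the only companion layer marker on the panel and it also chose the cells, so the name of the layer could not be checked independently, and the cells are called here by their keratin.

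Transcripts were counted in place on sections 5 µm thick with a panel of 328 genes, and each transcript was assigned to a segmented cell. Mice of the study carried *Pitx1* under a tetracycline-inducible promoter (TRE-*Pitx1*) together with *Krt5*-rtTA, which confines induction to cells in which the *Krt5* promoter is or was active, mainly basal keratinocytes and the outer root sheath. Control littermates ate normal chow and PITX1+ littermates ate chow with doxycycline from telogen onward, and age was not given in the sources used here. The wounded male skin was taken 4 days after full-thickness wounding of the back.

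The slide labels name both conditions for every skin slide, so the condition of a section came from its position as the rule states. The female slide held Control 1, Control 2, PITX1+ 1 and PITX1+ 2, the male unwounded slide held Control 3, PITX1+ 3 and PITX1+ 4, and the male wounded slide held the Control wound, PITX1+ wound 1 and PITX1+ wound 2. Cell totals of the 7 unwounded sections lay within 0.493% of a total listed for the same condition and at least 32.1% away from those of the other condition. Sections were counted as samples, and p-values measure the spread between sections. Median transcripts per cell ran from 26 to 32 in the unwounded Control sections and from 37 to 87 in the unwounded PITX1+ sections, and 17 cell names occurred on more than 1 skin slide.

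*Pitx1*, the induced gene, bore on the assignment first. In epithelial cells it stood at 61.7, 61.2 and 20.2 CPM (transcripts of the gene per 1000000 panel transcripts of the cells named) in Control 1 to 3 and at 1136 and 895 CPM in the male sections PITX1+ 3 and PITX1+ 4. In the female sections PITX1+ 1 and PITX1+ 2 it was 44.8 and 77.1 CPM, which overlapped the Control values. The Control wound held 58.9 CPM, against 634 and 313 CPM in the PITX1+ wounds. In the *Krt75* cells themselves *Pitx1* was at 0 transcripts in all 4 Control sections and in PITX1+ 1, at 2 in PITX1+ 2, at 46 and 47 in PITX1+ 3 and PITX1+ 4, and at 13 and 12 in the PITX1+ wounds. The few transcripts of the unwounded Control members make their 0 no bound of use for *Pitx1*. Each direction given for the female slide therefore rests on the assigned condition and not on a raised *Pitx1* level.

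*Krt75* cells were rare in unwounded Control skin and more frequent in every PITX1+ section. Control 1 held 4 of them among 17335 cells (0.0231%), Control 2 held 2 among 11778 (0.0170%) and Control 3 held 40 among 12684 (0.315%). PITX1+ 1 held 192 (0.335%), PITX1+ 2 held 412 (0.547%), PITX1+ 3 held 719 (1.88%) and PITX1+ 4 held 583 (2.08%). The exact 95% binomial interval of Control 3, 0.225% to 0.429%, overlapped that of PITX1+ 1, 0.290% to 0.386%, and these intervals cover counting error only. The male sections of a condition were thus higher than its female sections, and the conditions did not overlap on this measure. As a share of epithelial cells they did: Control 3 (1.69%) lay above PITX1+ 1 (0.935%) and PITX1+ 2 (1.35%). With at least 3 *Krt75* transcripts Control 3 (1.00%) lay above PITX1+ 1 (0.757%).

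The mean share was 1.21% ± 0.897 (SD, n = 4 sections) in PITX1+ skin and 0.118% ± 0.171 (SD, n = 3 sections) in Control skin, a difference that did not pass an exact two-sided permutation test (p = 0.114; adjusted p = 0.171 over 3 comparisons; smallest possible p = 0.0286). Per area of tissue, *Krt75* cells numbered 58.3 ± 36.7 per mm2 in PITX1+ and 2.83 ± 4.00 per mm2 in Control sections (exact permutation p = 0.0571, adjusted p = 0.171). Within the female slide the mean shares were 0.441% and 0.0200%, and within the male slide 1.98% and 0.315%. With conditions permuted within slides, a test added after the data were seen, share and density each gave an exact p = 0.0556, the smallest that its 18 arrangements allow. *Krt75* over all cells of a section stood at 890, 1300 and 2228 CPM in Control and at 1253, 1404, 4270 and 2997 CPM in PITX1+ sections, and here the groups overlapped (exact permutation p = 0.343). The members therefore held 1.75% to 23.3% of all *Krt75* transcripts in Control sections and 35.2% to 58.2% in PITX1+ sections.

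Depth moved with the share. A *Krt75* cell held a median of 36 to 43.5 transcripts in Control sections and 109 to 129 in PITX1+ sections, and *Krt75* made up 11.8% to 15.3% of the transcripts of the former and 5.39% to 6.61% of those of the latter. With cells thinned to 50 transcripts and at least 2 of *Krt75* required, the shares were 2.87% and 0.881% (exact permutation p = 0.171), and 2 of 4 PITX1+ sections then lay above every Control section. Thinning left out cells with fewer than 50 transcripts, and unevenly. On the female slide these were 12635 of 17335 cells in Control 1 and 35347 of 57231 in PITX1+ 1. On the male slide they were 10114 of 12684 in Control 3 and 7307 of 28005 in PITX1+ 4. Within slides the thinned means were 1.61% against 0.407% (female) and 4.13% against 1.83% (male). With *Krt75* required to be at least 5% of the transcripts of a cell with at least 20, in place of a fixed count, an alternative chosen after the data were seen, they were 1.27% in PITX1+ and 1.21% in Control sections (exact permutation p = 0.943). Within slides the PITX1+ mean was then the lower one, at 0.581% against 0.729% (female) and 1.96% against 2.17% (male), a mean difference of -0.179 points (exact permutation within slides, p = 0.444). On that relative scale the direction of the fixed-count share thus turned once the slide was taken into account.

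**Figure D1:**
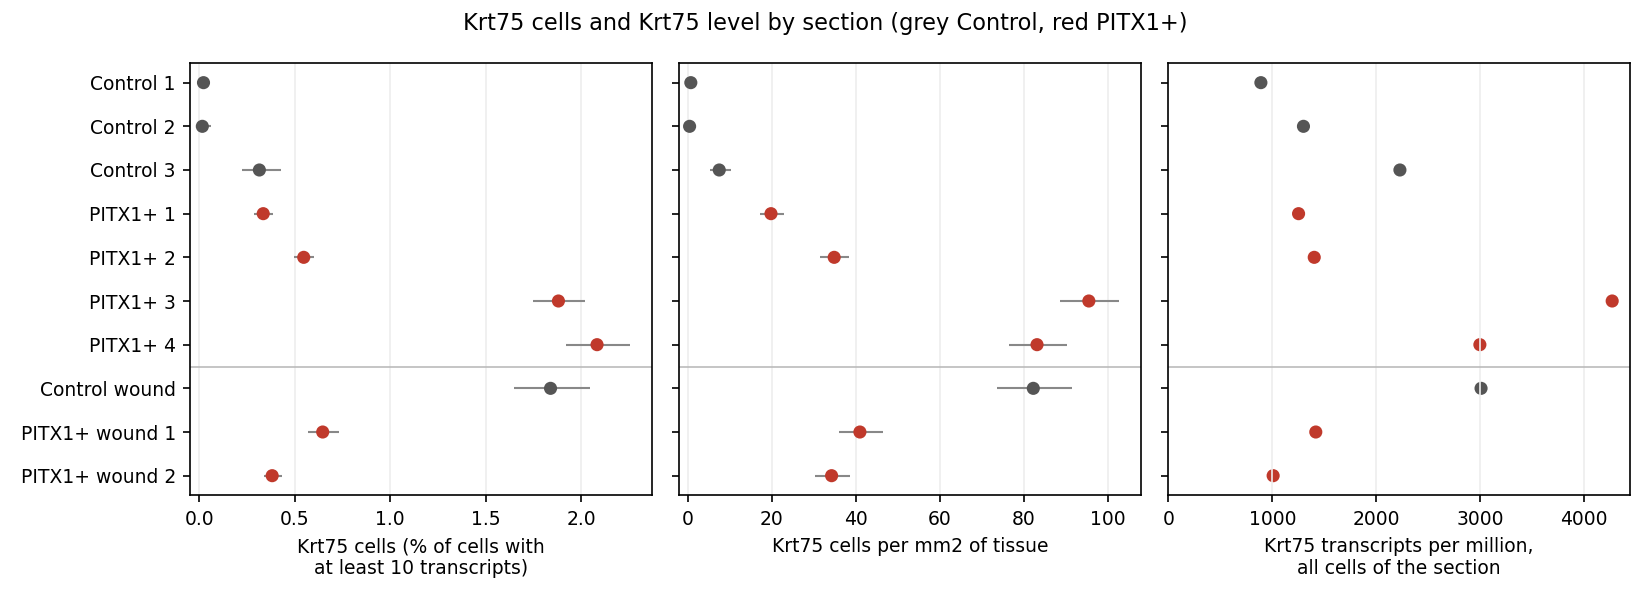
*Krt75* cells as a percent of cells with at least 10 transcripts (left), *Krt75* cells per mm2 of tissue (middle) and *Krt75* CPM over all cells (right), 1 point per section, grey for Control and red for PITX1+. Bars are exact 95% counting intervals; the share runs from 0.0170% in Control 2 to 2.08% in PITX1+ 4, while the *Krt75* level of Control 3 (2228 CPM) lies above those of PITX1+ 1 and PITX1+ 2.

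In the wounded skin the order of the conditions was the other way. The Control wound held 336 *Krt75* cells, 1.84% of its cells (exact 95% interval 1.65% to 2.04%), PITX1+ wound 1 held 247 (0.647%; 0.569% to 0.732%) and in PITX1+ wound 2 they made up 0.382% (0.337% to 0.432%). The 1 Control wound has no replicate, so no test was made. The Control wound also held 105 *Krtap17-1* cells (at least 3 transcripts) and 24 *Shh* cells, whereas the unwounded Control sections held none of either. PITX1+ wounds 1 and 2 held 38 and 0 *Krtap17-1* cells.

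The threshold of 5 cut through a continuous range. Of the members, 712 (25.5%) held exactly 5 *Krt75* transcripts, and 1031 cells held 4. Median transcripts per cell were 105.5 just inside the threshold and 104 just outside it. *Krt6a* stood at 23527 CPM inside and 22975 CPM outside, *Krt17* at 93031 and 92163 CPM, *Sox9* at 12416 and 11043 CPM, and the fibroblast gene *Col1a1* at 2185 and 3281 CPM. At the other end, Control 1 and Control 2 held no cell above 6 *Krt75* transcripts and Control 3 none above 11, while the highest count was 21 to 39 in the unwounded PITX1+ sections and 48 in PITX1+ wound 2.

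*Krt75* cells lay in small patches. Members joined when within 25 µm of each other formed 5 patches of at least 3 cells in Control 3, 19, 40, 74 and 59 in PITX1+ 1 to 4, 20 in the Control wound, and 32 and 25 in the PITX1+ wounds. The median patch held 3 cells in Control 3 and 4, 6, 6 and 8 cells in PITX1+ 1 to 4, with the largest at 62 cells in PITX1+ 3 and at 75 in the Control wound. None of the 6 members of Control 1 and Control 2 lay in a patch, so patch size could not be compared between conditions. Members with no other member in reach made up 32.5% in Control 3 and 3.60% to 29.2% in the unwounded PITX1+ sections. Among the cells within 20 µm of a *Krt75* cell, 6.83% to 23.6% were *Krt75* cells in the 8 sections with at least 10 members, where they were 0.315% to 2.08% of all cells.

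**Figure D2:**
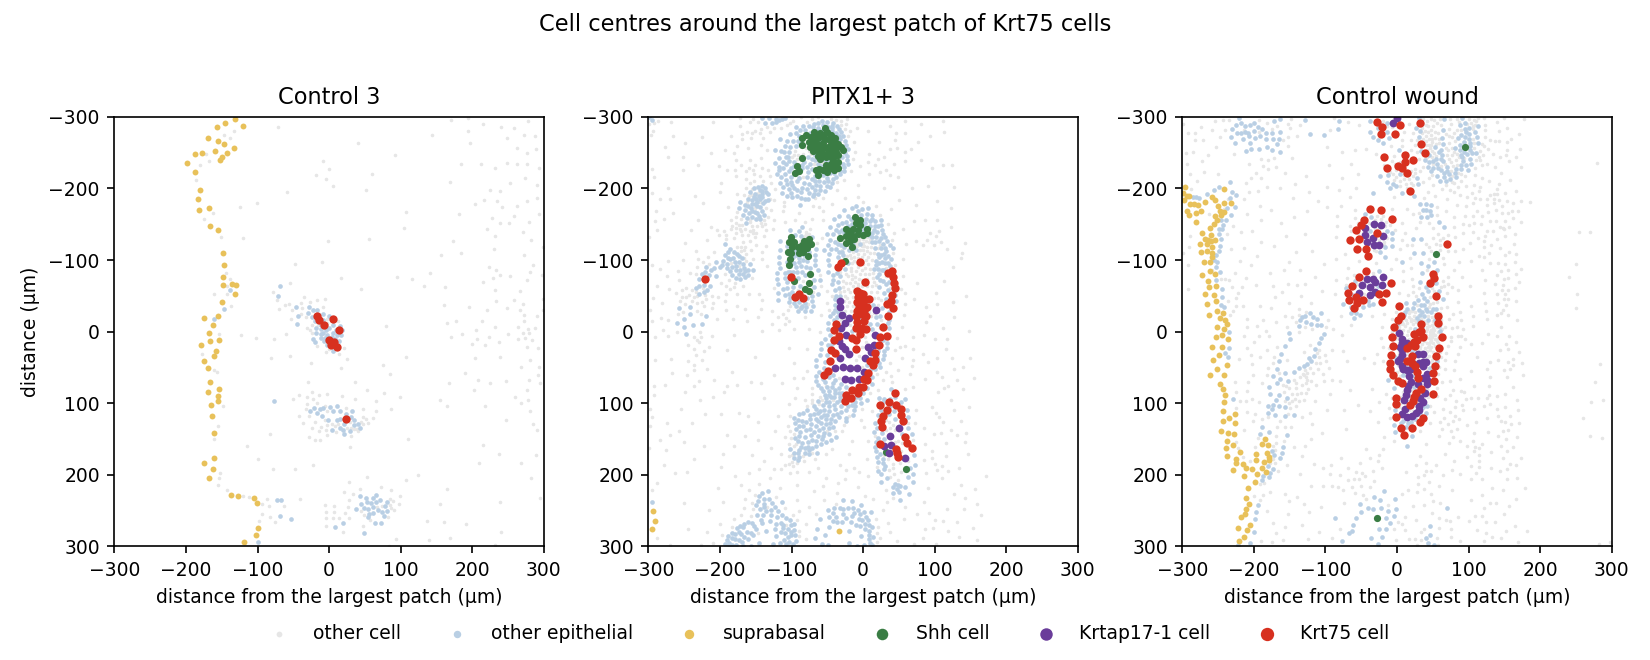
Cell centres in a window 600 µm wide around the largest patch of *Krt75* cells in 3 sections, with distances in µm from that patch and colours for the class of each cell. The windows hold 10 *Krt75* cells in Control 3, 88 in PITX1+ 3 beside 32 *Krtap17-1* and 110 *Shh* cells, and 97 in the Control wound beside 61 *Krtap17-1* cells.

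*Krt75* cells lay nearer to hair-making cells and farther from the suprabasal epidermis than other epithelial cells of the same section did. The comparison cells were those with at least 5 transcripts of *Krt5*, *Krt6a*, *Krt15*, *Krt16* and *Krt17* together, interfollicular epidermis included, and the comparison was set up after the data were seen. Other follicle cells were not compared on their own, so the tests of all 3 distances cannot set *Krt75* cells apart from them. To the nearest *Krtap17-1* cell, *Krt75* cells had a median distance of 492 µm in PITX1+ 1, 141 µm in PITX1+ 2, 48.5 µm in PITX1+ 3, 487 µm in PITX1+ 4, 23.6 µm in the Control wound and 258 µm in PITX1+ wound 1. Other epithelial cells had 496, 310, 255, 564, 286 and 418 µm in the same order. *Krt75* cells were nearer in 6 of 6 sections, by 147 µm on average (SD 92.7; exact two-sided sign-flip p = 0.03125, the smallest that 6 sections allow). For cells with at least 10 *Krt75* transcripts it was 5 of 6 sections (exact p = 0.0625). The gap ranged from a few µm in PITX1+ 1, which held 17 *Krtap17-1* cells, to more than 200 µm in PITX1+ 3 and in the Control wound.

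Within 50 µm of a *Krtap17-1* cell lay 67.6% of the *Krt75* cells of the Control wound, against 10.6% of its other epithelial cells. In PITX1+ 3 the shares were 50.6% and 12.5%, and in PITX1+ 1, the lowest, 9.90% and 2.56%. To the nearest *Shh* cell, *Krt75* cells were nearer in 7 of 7 sections, by 244 µm on average (SD 255; exact sign-flip p = 0.0156, adjusted p = 0.0234 over 3 comparisons). The distance to the nearest *Shh* cell had a median of 43.7 µm in PITX1+ 3 and 63.5 µm in PITX1+ 2, and reached 928 µm in PITX1+ wound 2, which held only 13 *Shh* cells. With a single transcript enough for a target cell, the differences shrank to 59.2 µm (*Krtap17-1*, nearer in 8 of 8 sections) and 42.0 µm (*Shh*, 7 of 8).

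Suprabasal cells, taken as those with at least 5 transcripts of *Krt1*, *Krt77*, *Lor*, *Flg* and *Flg2*, lay farther from *Krt75* cells than from other epithelial cells in 8 of 8 sections, by 102 µm on average (SD 65.5; exact sign-flip p = 0.00781, adjusted p = 0.0234). The medians were 145 and 43.0 µm in Control 3, 120 and 101 µm in PITX1+ 3, and 209 and 16.3 µm in the Control wound. Among the cells within 20 µm of a *Krt75* cell that were not *Krt75* cells themselves, the median share over sections of cells with at least 3 transcripts of those suprabasal genes was 0.743% (range 0% to 1.63%), and around other epithelial cells it was 11.5% (2.94% to 27.3%). *Krtap17-1* cells made up 0.579% (0% to 10.0%) and 0.139% (0% to 0.884%). Unwounded Control sections held no *Krtap17-1* or *Shh* cell, so these distances could not be compared between conditions. The distance to suprabasal cells had a median of 106, 92.2 and 145 µm in Control 1 to 3, where it rested on 4, 2 and 40 cells, and of 218, 145, 120 and 94.8 µm in PITX1+ 1 to 4, and the groups overlapped.

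**Figure D3:**
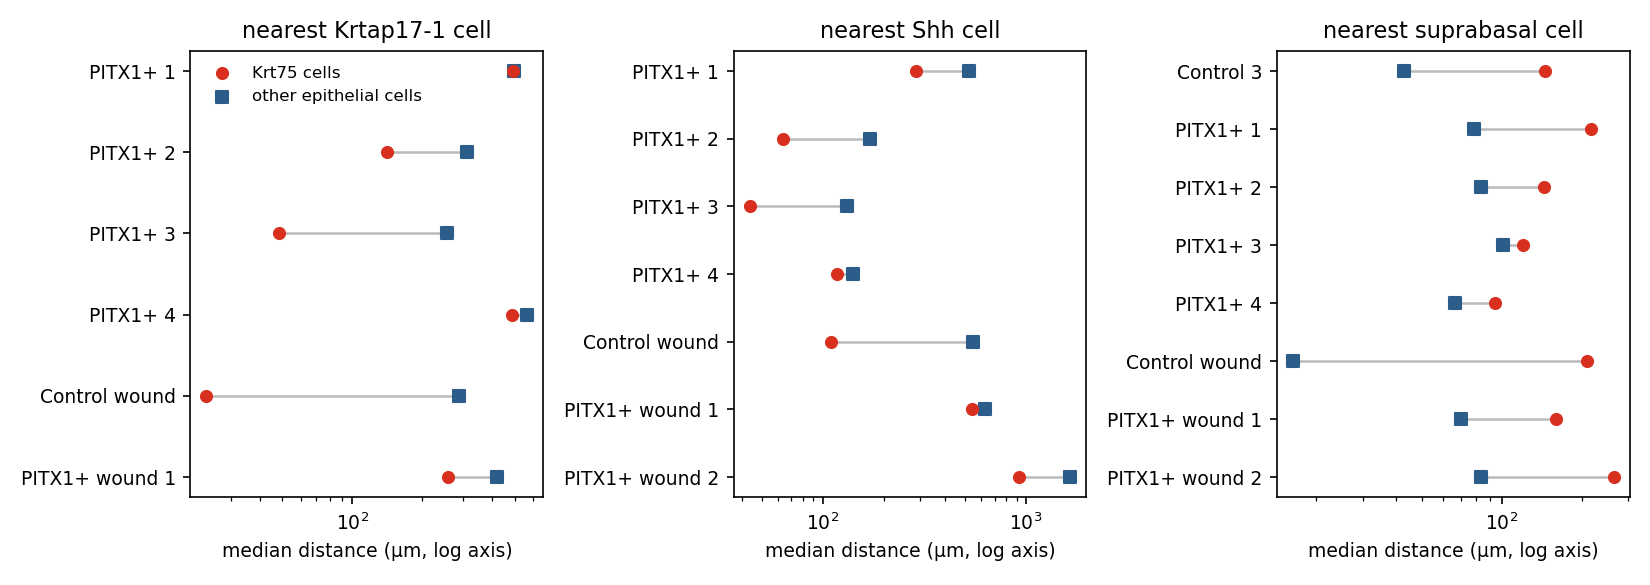
Median distance (µm, log axis) from *Krt75* cells (red circles) and from other epithelial cells (blue squares) to the nearest target cell, 1 row per section with at least 10 target cells. Red lies left of blue in 6 of 6 sections for *Krtap17-1* cells and 7 of 7 for *Shh* cells, and right of blue in 8 of 8 for suprabasal cells.

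The genes that accompanied *Krt75* were compared with all other cells of the same section, over the 8 sections with at least 10 members. These folds follow from how the cells were selected and are a description. The 40 members of Control 3 held 1965 transcripts in all, so a gene at 0 there could stand at up to 1527 CPM (3 transcripts), while in the other 7 sections that limit was 29.5 to 109 CPM. Of 325 panel genes outside the rule, 18 were higher in the *Krt75* cells of all 8 sections and 146 lower in all 8, with a median fold of 0.419 over all genes. The 3 keratins of the companion layer and activated epithelium had a median fold of 2.41, with 2 of 3 higher in all 8 sections.

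*Krt6a* was found in 73.4% of *Krt75* cells and in 16.6% of other cells. Its level in *Krt75* cells was 37150 CPM in Control 3, 22085, 19934, 25068 and 26860 CPM in PITX1+ 1 to 4, 12187 CPM in the Control wound and 27144 and 30164 CPM in the PITX1+ wounds, a median of 2.99-fold over other cells. *Krt17* ran from 59581 CPM in the Control wound to 168748 CPM in PITX1+ 1. *Krt16* was at 0 in Control 3, at 3733 CPM in the Control wound and between 11505 and 37388 CPM in the 6 PITX1+ sections. *Krt6a* and *Krt17* were thus present in the *Krt75* cells of both conditions, while *Krt16* separated the PITX1+ sections from the 2 Control sections.

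By median fold over the other cells, the leading genes were *Wfdc3*, a whey acidic protein domain gene, at 6.81-fold, *Areg* at 4.68-fold and *Tgfa* at 4.27-fold, both ligands of the EGF receptor, *Fzd5*, a Wnt receptor, at 4.07-fold, *Arg1*, arginase, at 3.84-fold, *Krt23* at 3.83-fold and *Slpi*, an inhibitor of leukocyte proteases, at 3.57-fold. *Dsc2*, a desmosomal cadherin, *Sprr1a* and *Sprr2d*, small proline-rich precursors of the cornified envelope, *Ephb3*, *Fzd1*, *Sox9* and *Cnfn* followed at 3.56- to 2.90-fold. Several of these were not shared by all sections. *Wfdc3* was 18830 CPM in Control 3 and 141 to 6848 CPM in the unwounded PITX1+ sections, while *Areg*, *Krt23*, *Slpi*, *Dsc2*, *Sprr1a* and *Sprr2d* were at 0 in Control 3. *Tgfa* was found in 38.6% of *Krt75* cells and 6.81% of others, and was higher in all 8 sections.

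*Sox9*, the transcription factor of outer root sheath and bulge progenitors, was found in 62.7% of *Krt75* cells and 15.5% of other cells. It stood at 44784 CPM in Control 3, at 10463 to 23258 CPM in the unwounded PITX1+ sections, at 12590 CPM in the Control wound and at 6865 and 2635 CPM in the PITX1+ wounds. Of the 8 genes of the outer root sheath and bulge, *Sox9* and *Krt15* were higher than in other cells in all 8 sections and *Cd34*, a bulge surface marker, was lower in all 8. *Cd34* was between 52.0 and 4580 CPM in *Krt75* cells. Bulge cells were picked by *Krt15* and *Cd34*, which are therefore not compared with them. *Krt75* cells had lower *Lgr5* and *Lhx2* than bulge cells in 8 of 8 sections, and *Sox9* was higher in 4 of 8.

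Several genes of the hair shaft and inner root sheath were lower in *Krt75* cells than in *Krtap17-1* cells. The rule itself split *Krt75* cells from *Krtap17-1* and *Shh* cells, so these levels are a description. *Dlx3*, a transcription factor of the differentiating hair, *Dsg4*, the desmoglein of the shaft, and *Lrrc15* had medians of 48161, 44998 and 66641 CPM in *Krtap17-1* cells and were lower in the *Krt75* cells of 6 of 6 sections, at medians of 8767, 2092 and 2989 CPM. *Sox9* was higher in *Krt75* cells than in *Shh* cells in 7 of 7 sections and than in *Krtap17-1* cells in 5 of 6.

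Markers of the suprabasal epidermis and of cell types outside the epithelium were mostly low in level, but those of the basal epidermis were not. The 6 basal epidermis genes had a median fold of 1.02, and their sum was higher than in other cells in 5 of 8 sections. The sum of the 6 upper follicle and sebaceous genes was also higher in 5 of 8 sections, at a median fold of 0.693. Of the 8 suprabasal and cornified genes, 5 were lower than in other cells in all 8 sections, beside 146 of all 325 genes. The median fold of the list was 0.197, and *Cnfn* in it was higher, at 2.90-fold. By the share of cells with at least 3 transcripts of the list the order was mixed. *Krt75* cells were lower than other cells in Control 3 (0% against 14.4%) and PITX1+ 4 (4.97% against 11.2%). They were higher in the remaining sections, from 12.5% against 10.6% in PITX1+ 1 to 32.0% against 4.42% in PITX1+ wound 2. Of the 9 immune genes, all were lower in all 8 sections, and their summed level was 438 to 6657 CPM against 24150 to 69011 CPM in other cells. The 6 fibroblast genes summed to 1144 to 18582 CPM against 36250 to 101165 CPM. The 4 neutrophil genes summed to 0 to 16521 CPM against 466 to 21128 CPM, and in PITX1+ wound 2 at least 3 neutrophil transcripts were held by 40.2% of the *Krt75* cells and by 20.9% of other cells (11.7% and 13.2% in PITX1+ wound 1). The median fold of the 10 cell cycle genes was 0.313, and 1 of them was lower in all 8 sections. In the Control wound the summed cell cycle genes were higher than in other cells, at 29014 CPM against 18103 CPM, and 37.8% of the *Krt75* cells and 14.9% of the other cells held at least 3 such transcripts. An outline can take up transcripts of touching cells, no doublet caller was run, and the part of this in the values was not tested.

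**Figure D4:**
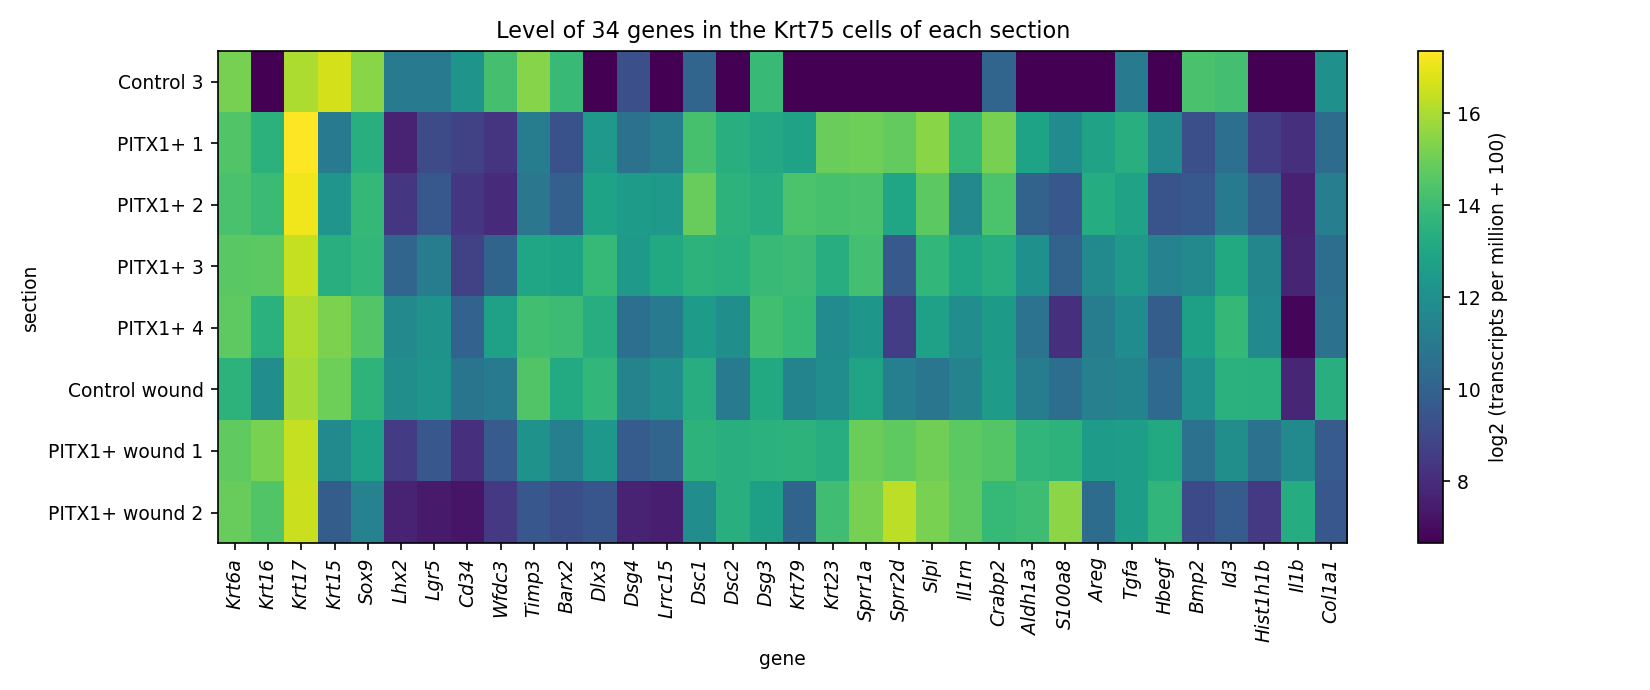
Level of 34 genes in the *Krt75* cells of each of the 8 sections with at least 10 members, as log2 of CPM plus 100 (colour). *Krt6a* and *Krt17* are present in every row, whereas *Krt16*, *Slpi* and *Sprr2d* are at 0 in Control 3, where *Krt15* (105852 CPM) is highest.

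Median outline area was 56.8 µm2 in Control 3, 54.7 to 95.1 µm2 in the unwounded PITX1+ sections and 69.9 to 105 µm2 in the wounds. Within a section, *Krt75* cells were not alike in their genes. *Krt15* was found in fewer of the *Krt75* cells that held *Krt16* than of those that did not, in 7 of 7 sections with at least 5 of both. The shares were 10.8% and 22.2% in PITX1+ 1, 15.9% and 31.8% in PITX1+ 2, 20.5% and 54.0% in PITX1+ 3 and 43.8% and 80.4% in PITX1+ 4. They were 28.8% and 81.7% in the Control wound, 7.84% and 41.9% in PITX1+ wound 1 and 1.49% and 9.09% in PITX1+ wound 2, a mean difference of -27.4 points (SD 16.3, n = 7). Control 3, where 38 of 40 members held *Krt15* and none *Krt16*, could not enter.

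*Krt16* was found in more of the *Krt75* cells with *Sprr1a* than of those without it in 7 of 7 sections, by 27.7 points on average (SD 16.3), from 16.8% and 14.8% in the Control wound to 77.6% and 23.8% in PITX1+ 4. *Tgfa* was found more often where *Areg* was, in 7 of 7 sections, by 13.7 points (SD 6.66). *Lhx2*, a transcription factor of hair follicle stem cells, was more frequent where *Krt15* was in 6 of 7 sections. *Krt6a* was more frequent where *Krt16* was in 5 of 7 sections and less frequent in PITX1+ 4 (82.1% against 85.6%) and the Control wound (48.1% against 53.9%). *Krt15* was less frequent where *Sprr1a* was in 6 of 7 sections and where *Dsg4* was in 5 of 7, and where *Krt6a* was it was more frequent in 4 sections and less frequent in 4. These pairs, 8 in all, were picked after their values had been seen and carry no test, and *Krt75* cells with *Krt16* held more transcripts in most sections. Those with *Sprr1a* held more in every section compared, with medians of 117 against 102 in PITX1+ 2 and 217.5 against 118 in PITX1+ wound 2. A second gene is found more readily in a cell with more transcripts, and the shares were not corrected for this.

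**Figure D5:**
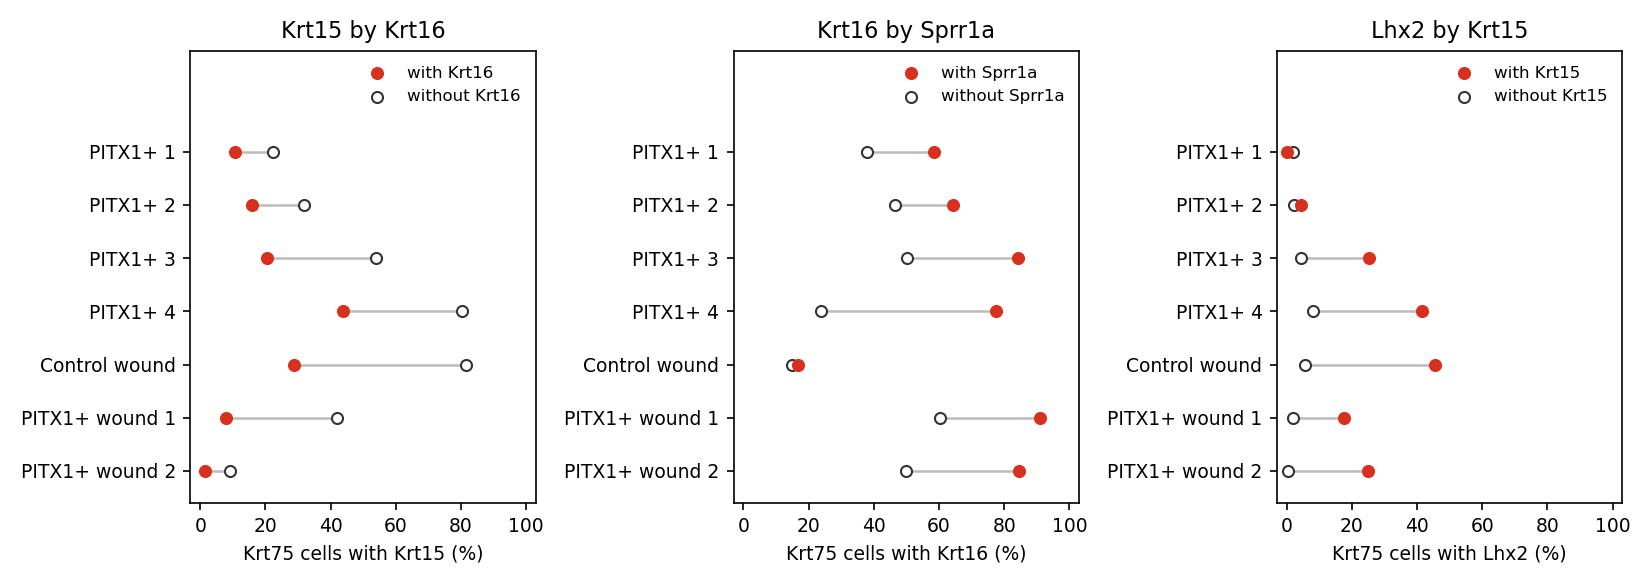
Percent of *Krt75* cells in which a gene was found, split by whether a second gene was found in the same cell (filled, with it; open, without it), 1 row per section. Filled points lie left of open ones in 7 of 7 sections for *Krt15* by *Krt16*, for example 20.5% against 54.0% in PITX1+ 3, right of them in 7 of 7 for *Krt16* by *Sprr1a* and in 6 of 7 for *Lhx2* by *Krt15*.

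Whether *Krt75* cells of PITX1+ skin differed from those of Control skin could not be tested with the rule itself, since only Control 3 held at least 10 of them. The test was therefore run on cells with at least 3 *Krt75* transcripts and the same limits on *Krtap17-1* and *Shh*. There were 31, 51 and 127 such cells in Control 1 to 3 and 433, 854, 1345 and 979 in PITX1+ 1 to 4, summed per section and fitted with the slide as a covariate. Control cells held a median of 36 to 39 transcripts and PITX1+ cells 97 to 121, and the Control cells held 7725 transcripts in all, so low genes could not be measured well there. Control 1 to 3 held 0 *Krtap17-1* and 0 *Shh* cells, while PITX1+ 1 to 4 held 17 to 186 and 122 to 1130. The study likens the enlarged PITX1+ follicles to follicles halted at the height of anagen. Condition and follicle stage therefore cannot be told apart here. Whether both conditions held the same kind of cell was not tested. CPM values of single genes given with this and the following tests leave out the 3 genes of the rule. Summed levels, and levels given without a test, keep them.

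Of 272 genes, edgeR's quasi-likelihood test called 75 (27.6%) at an adjusted p below 0.05, 62 higher (22.8%) and 13 lower (4.78%) in PITX1+ sections. The median log2 change of all 272 genes was 0.64 after TMM normalization. With library size alone it was -0.00 and the calls were 40 higher and 22 lower, so the higher calls were 82.7% of calls with TMM and 64.5% without it. Log2 changes given with ± carry the TMM scaling and CPM values do not, so ratios of the printed CPM can differ from them. Of the 75 called genes, 13 had no transcript in Control cells and are given as a lower bound set by 3 transcripts over the Control sections, and 19 had 1 to 3 transcripts and are given as a ratio with its 95% counting interval.

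The oral and activated genes were called higher in 10 of 14 cases, with a median log2 change of 3.28 when genes at 0 were held at their bound. Of these 10 genes, 5 had no Control transcript and 4 had 1 to 3. A fall could hardly have been seen in them, so the absence of lower calls carries no weight. The study chose the panel and the list was drawn up with earlier results of these mice known, so the count is not independent evidence of a direction. *Slpi* was at 0 in Control 1 to 3 and at 41507, 27684, 13225 and 6598 CPM in PITX1+ 1 to 4, at least 57.3-fold higher. *Sprr2d*, at 0 in Control, was 24927, 11819, 1149 and 204 CPM in PITX1+ 1 to 4, at least 24.5-fold higher on average and at least 11.3-fold without PITX1+ 1, and PITX1+ 4 lay below the 388 CPM that 3 Control transcripts make. *Aldh1a3*, an enzyme of retinoic acid synthesis, was at least 9.18-fold higher, *Sprr1b* at least 7.23-fold and *S100a8*, an inflammatory calcium-binding protein, at least 3.93-fold (2.08-fold without PITX1+ 1), with its call lost in 10 of 17 other settings. *Sprr1a* was 65.7-fold higher (18.2 to 542), and *Crabp2*, which binds retinoic acid, rose by 3.35 ± 0.52 (SE) on the log2 scale (edgeR adjusted p = 0.000346). In the cells that were not *Krt75* cells, the oral and activated genes summed to 16721, 15068 and 7152 CPM in Control 1 to 3. The sum there was 75694, 60686, 27547 and 11416 CPM in PITX1+ 1 to 4. It was thus also higher in PITX1+ than in Control on each slide, so the direction was not particular to *Krt75* cells.

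*Krt16* was at a single transcript in Control cells, and the ratio was 141-fold (25.2 to 5559). The other 2 keratins of that list were not called: *Krt17* was 71867, 77878 and 73982 CPM in Control and 173917, 143899, 91401 and 71993 CPM in PITX1+ sections (log2 change 1.35 ± 0.52, edgeR adjusted p = 0.075), and *Krt6a* 8764, 10158 and 42810 CPM against 22531, 22816, 26534 and 24928 CPM. *Krt23* rose by 5.33 ± 0.77 on the log2 scale.

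Desmosomal cadherins, which join keratinocytes, were called higher in 6 of 8 cases: *Dsc1* rose by 3.91 ± 0.52 and *Dsc2* by 3.92 ± 0.54 on the log2 scale, *Dsg1a* by 3.63 ± 0.58, *Dsg1b* by 4.20 ± 0.63, *Dsg2* was at least 7.28-fold higher and *Dsg4* 16.3-fold (4.50 to 135). All 4 genes of the hair shaft and inner root sheath were called higher, with *Dlx3* at 46.6-fold (12.9 to 385) and *Mt4* at least 3.92-fold. Of these 4, 1 had no Control transcript and 3 had 1 to 3, so a fall could hardly have been seen in them. Of the suprabasal and cornified genes 4 of 8 were higher, with *Cnfn* at least 4.54-fold, and of the upper follicle and sebaceous genes 3 of 5, among them *Krt79* and *Scd2*, a fatty acid desaturase, up by 5.00 ± 0.59. Among 19 signals, *Areg* was at 876, 1129 and 0 CPM in Control and at 5894, 7805, 3339 and 2194 CPM in PITX1+ sections and was called higher. *Hbegf* was at least 4.56-fold and *Bmp4* at least 3.93-fold higher, *Wnt5a* was 30.9-fold higher (5.55 to 1223), and *Tgfa* rose by 2.25 ± 0.46.

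Of the 13 genes that fell, 2 were outer root sheath and bulge genes. *Krt15* was 170903, 176072 and 124688 CPM in Control 1 to 3 and 2453, 4836, 10626 and 36645 CPM in PITX1+ 1 to 4, with no overlap, a fall by 3.75 ± 0.71 on the log2 scale (edgeR adjusted p = 0.0013). *Cd34* was 3506, 2257 and 9352 CPM in Control and 304, 203, 457 and 1266 CPM in PITX1+ sections and fell by 2.82 ± 0.58. The other 6 of the 8 outer root sheath and bulge genes were not called, and the median log2 change of the list was -1.01. *Sox9* was one of them, at 35933, 32167 and 44057 CPM in Control and 11541, 12748, 13851 and 21743 CPM in PITX1+ sections (log2 change -0.72 ± 0.37, edgeR adjusted p = 0.17).

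Among all genes *Wfdc3* fell most, by 4.61 ± 0.85 on the log2 scale, from 20158, 25395 and 24314 CPM to 228, 160, 981 and 5945 CPM. *Ptn*, a secreted growth factor, fell by 3.85 ± 0.89, *Fcgbp*, a secreted IgG Fc-binding protein, by 3.37 ± 0.73, *Tgfbi*, a matrix protein, by 2.74 ± 0.66, *Col17a1*, the hemidesmosomal collagen, by 3.12 ± 0.57, *Postn*, the matrix protein periostin, by 3.30 ± 0.57, *Timp3*, an inhibitor of metalloproteinases, by 2.35 ± 0.49, and *Bmp2*, a ligand that holds follicles at rest, by 2.22 ± 0.40. These genes were named in part because their PITX1+ values lay below the Control values of the same slide, so that order is no further result. Of other cell types, 0 of 8 immune genes were called, 1 of 5 fibroblast genes (*Postn*, lower) and 1 of 6 vascular and muscle genes (*Flt1*, higher). Of 10 cell cycle genes *Hist1h1b* was called higher. The calls of *Hist1h1b*, *Flt1*, *Flg* and *Plet1* were lost in 13 of 18, 12 of 16, 12 of 18 and 11 of 18 other settings.

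The call count rested on single sections: it was 41 without Control 3 and 0 by edgeR on the male slide, where Control 3 was the only Control section (62 at an unadjusted p under 0.05). Requiring *Krt75* to be also at least 5% of the transcripts of a cell left 56 called genes, all 56 among the 75. The comparison of slides that follows had Control 3 as its only male Control section, and what it could recover was not simulated. A lack of calls there cannot show that the slides changed alike. Whether the change differed between the female and the male slide was tested by an interaction term over 291 genes, and 0 genes were called (0%) by edgeR, with 26 at an unadjusted p under 0.05 and 1 called by DESeq2.

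Wounding of PITX1+ male skin was compared in the *Krt75* cells proper, 2 wounds against the 2 unwounded male sections, which were on another slide, so wounding and slide cannot be told apart. Of 235 genes, edgeR called 33 (14%), 32 higher (13.6%) and 1 lower (0.426%) in wounds. The oral and activated genes were higher in 6 of 14 cases. *Sprr2d* was 28052 and 84484 CPM in wounds and 743 and 302 CPM in unwounded skin, a rise by 7.51 ± 1.16 on the log2 scale (edgeR adjusted p = 0.017). *Sprr3*, at 0 in unwounded *Krt75* cells, was at least 51.3-fold higher, *S100a8* rose by 6.40 ± 1.30, *Aldh1a3* by 3.02 ± 0.76 and *Il1rn*, the interleukin-1 receptor antagonist, by 2.79 ± 0.71. The call of *Aldh1a3* was lost in 7 of 11 other settings. *Hbegf*, a wound-induced EGF receptor ligand, rose by 3.36 ± 0.84 and *Arg1* by 3.80 ± 0.82. In other cells the summed oral and activated genes were higher in wounds too, at 73987 and 84762 CPM against 27547 and 11416 CPM in PITX1+ 3 and 4.

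Neutrophil genes rose in the same cells. *Il1b* was 3509 and 10176 CPM in wounds and 126 and 12.6 CPM in unwounded sections, a rise by 7.32 ± 1.32 on the log2 scale, and *Itgam*, a myeloid integrin, rose by 7.14 ± 1.17. The chemokine gene *Cxcl3* rose by 7.84 ± 1.37, *Ccl4* was at least 14.3-fold higher, and the ratio was 323-fold (88.9 to 2680) for *Mmp9*, a protease of neutrophils, 227-fold (77.2 to 1106) for the chemokine *Cxcl5*, 184-fold (50.4 to 1532) for *Hdc*, histidine decarboxylase, and 160-fold (43.7 to 1331) for the chemokine *Ccl3*. All 4 neutrophil genes were called higher. Of the 7 immune genes *C1qa*, *Cd74* and *Ctss* were called higher, and *Csf1r*, *Cd52*, *Lyz2* and *Cd68* were not (edgeR adjusted p = 0.055, 0.055, 0.0812 and 0.19). The summed neutrophil genes stood at 5196 and 16521 CPM in the *Krt75* cells of PITX1+ wounds 1 and 2, at 177 and 23.7 CPM in PITX1+ 3 and 4, and 11.7% and 40.2% of the wound members held at least 3 of those transcripts. With the genes of the rule kept, *Il1b* alone gave 3359 and 9760 CPM of the wound sums. In other cells the sum was 12028 and 21128 CPM in these wounds and 954 and 466 CPM in PITX1+ 3 and 4. Immune cells made up 10.4% and 25.8% of the other cells within 20 µm of members in the wounds, and 1.54% and 0.985% in PITX1+ 3 and 4. The part of these surroundings in the rise was not tested. With only members that held fewer than 2 transcripts of immune, fibroblast, vascular and muscle genes, 0 genes were called by edgeR, with 48 at an unadjusted p under 0.05. The 4 neutrophil genes were not part of that limit.

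By edgeR with TMM the only gene lower in wounds was *Mlana*, a melanocyte gene, with 2 transcripts in the wounds and 240 in unwounded skin (69.0-fold lower, 18.9 to 573). Outer root sheath and bulge genes had a median log2 change of -2.40 with 0 of 8 called. *Krt15* among them was 11448 and 41085 CPM in unwounded sections and 3443 and 831 CPM in wounds (log2 change -3.15 ± 0.88, edgeR adjusted p = 0.053). This split changed with the setting: library size alone gave 30 higher and 5 lower, DESeq2 57 higher and 12 lower, and leaving out PITX1+ wound 1 gave 68 higher and 58 lower. The count of calls went from 0, without PITX1+ 3 or without PITX1+ wound 2, to 126 without PITX1+ wound 1, and it was 14 without PITX1+ 4.

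*Krt75* cells of the Control wound were compared with those of both PITX1+ wounds as levels without a test, with exact 95% Poisson intervals for counting error only. Of 325 panel genes the interval of the Control wound lay apart from both others in 51.7%, above in 106 (32.6%) and below in 62 (19.1%). Of the 190 genes with at least 100 transcripts over these sections it lay apart in 71.6%, above in 83 (43.7%) and below in 53 (27.9%). Against that background, all 8 outer root sheath and bulge genes lay above. Of the 14 oral and activated genes 13 lay below and *Tgm3*, a transglutaminase, above, at 4721 CPM (4136 to 5367) against 972 and 139 CPM. Of the 10 cell cycle genes 9 lay above, as did 5 of the 6 fibroblast genes, and all 4 neutrophil genes lay below. *Krt15* was 32524 CPM (30956 to 34152) in the Control wound and 3295 and 797 CPM in the PITX1+ wounds, *Lgr5* 4560 CPM against 655 and 69.3 CPM, and *Lhx2* 3793 CPM against 275 and 104 CPM. *Slpi* was 1755 CPM (1406 to 2165) against 33290 and 37515 CPM, *Sprr2d* 2381 CPM against 26848 and 81028 CPM, and *Krt16* 3733 CPM against 37388 and 22329 CPM. The proliferation genes *Hist1h1b* and *Top2a* were 11077 and 5246 CPM in the Control wound, 1542 and 338 CPM in PITX1+ wound 1 and 243 and 52.0 CPM in PITX1+ wound 2. *Col1a1* was 10613 CPM in the Control wound and 739 and 641 CPM in the others, and its part in the other values was not tested. Each of these intervals lay apart from those of both PITX1+ wounds.

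Between the male and female PITX1+ sections, a comparison added after the data were seen, 27 of 235 genes (11.5%) were called by edgeR, 9 higher (3.83%) and 18 lower (7.66%) in the males. With library size in place of TMM scaling 27 were higher and 31 lower, and without the filter on low counts 31 and 31, so the excess of lower genes rested on these choices. Sex, slide and *Pitx1* level cannot be told apart here. Markers of other cell types moved with it. *Cd3g*, a T cell gene, and *Ackr1*, of venules, were at 0 in the male *Krt75* cells and at least 19.2- and 12.3-fold lower, the antibody gene *Igkc* was lower by 5.04 ± 0.84 on the log2 scale, and *Ccl3* and the smooth muscle gene *Myh11* were 25.3-fold (6.19 to 223) and 10.4-fold (2.87 to 57.2) lower. Of 5 immune genes *C1qa* and *Ctss* were called lower. The summed immune genes stood at 2426 and 1527 CPM in PITX1+ 1 and 2 and at 1396 and 438 CPM in PITX1+ 3 and 4. With only members that held fewer than 2 transcripts of immune, fibroblast, vascular and muscle genes, 29 genes were called, 18 of them among the 27. *Cd3g*, *Ackr1*, *Igkc* and *Ccl3* were not part of that limit. *Barx2*, a homeobox gene, was 7712 and 17180 CPM in the males and 574 and 947 CPM in the females and was higher by 3.66 ± 0.53 on the log2 scale (edgeR adjusted p = 0.035), *Cebpb* by 3.53 ± 0.54 and *Bmp2* by 2.70 ± 0.51, and the BMP receptor *Bmpr1a* and the BMP target *Id3* were also higher. *Dnajb1*, a heat shock co-chaperone, was higher by 2.83 ± 0.41, the tetraspanin *Cd63* by 2.71 ± 0.41, the proteoglycan *Sdc4* by 2.25 ± 0.33 and the protease *Adam10* by 1.62 ± 0.32. *Sprr2d* was 743 and 302 CPM in the males and 29866 and 8374 CPM in the females and was lower by 5.65 ± 1.01, with *Areg* lower by 1.93 ± 0.37 and the Wnt ligand *Wnt7a*, at 0 in the males, at least 16.7-fold lower. *Sprr3* was at least 23.9-fold lower, *Wnt16* 60.3-fold (9.87 to 2475), the ephrin receptor *Epha5* 27.7-fold (6.85 to 243) and *Drp2* 15.7-fold (3.55 to 143). *Krt6a*, *Krt16*, *Krt17* and *Sox9* were not among the called genes (edgeR adjusted p = 0.907, 0.937, 0.201 and 0.711). The count was 0 without PITX1+ 1 and 76 without PITX1+ 3.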

How the data were processed

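The series holds 4 Xenium slides, of which the 3 of skin were used here, and the members and gene lists were chosen with earlier results of these data known. The authors deposited, per slide, a transcript table with a position, a quality score and a cell for each transcript, and a cell table with positions and counts. The software versions behind segmentation are not given in the sources used here. The deposited transcript counts were rebuilt per cell using a quality score minimum of 20, and matched the deposited count of every cell. The deposited positions, in µm, gave the sections (cells chained within 100 µm, or 200 µm in the wounded slide, at least 2000 cells), the tissue area (squares of 50 µm), the patches (25 µm) and the distances. The skin slides held 6288712 to 10483436 such transcripts, and over all slides 98.1% to 99.1% of them lay in cells.

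Section values were compared by exact two-sided permutation tests. Counts summed per section were tested with edgeR 4.0.16 (R 4.3.3) by the quasi-likelihood test with TMM and Benjamini-Hochberg adjustment over all genes tested, without the 3 genes of the rule. Genes were named by rule: the listed genes, the 15 leading genes among those in at least 10% of members, and in each comparison the 10 largest called changes per direction whose sections did not overlap; other called list members are named in addition. On simulated counts of the Control comparison the fit recovered 85% of 4-fold, 20% of 2-fold and 0% of 1.5-fold changes. The simulation gave all sections the same gene profile and a fixed spread, and changed only genes with many transcripts. Its recovery therefore does not hold for genes with few Control transcripts or a wide spread between sections. DESeq2 1.42.0, library-size scaling, other thresholds, nuclear transcripts and leaving out sections were alternatives. The planned fit on members, PITX1+ against Control, could not be made for lack of Control members, and cells with at least 3 *Krt75* transcripts were used in its place. A result on 1 gene is not reported here.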

Additional observations from a re-analysis of the deposited data

Results flagged for a closer look

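The buccal mucosa slide, from Control mice, was not part of the comparisons. On it 38 of 62782 cells with at least 10 transcripts met the rule for *Krt75* cells (0.0605%, exact 95% binomial interval 0.0428% to 0.0831%), above the 0.00478% that a count of 0 would allow. *Krt75* stood at 127 CPM over all its cells, and the highest count in a cell was 19. No PITX1+ buccal mucosa was analysed here, and the source of these transcripts was not tested. Among 26 quantities no PITX1+ section stood apart from the other 3 by Dixon's criterion.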

How the results depend on the processing

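The difference in share and in density passed the test in no alternative and kept its direction in all but 1: with *Krt75* at least 5% of a cell's transcripts and the slide as a block, the difference in share was -0.179 points. With a section left out neither could pass, as the smallest possible exact p is then 0.0667 (2 Control sections) or 0.1 (3 PITX1+ sections). No paired analysis was possible because no label ties a single Control section to a single PITX1+ section. With the slide as a block and the fixed count both kept their direction, at the smallest p of that test. The distance to *Krtap17-1* cells was -166 µm with targets of at least 5 transcripts and -179 µm for cells with at least 10 *Krt75* transcripts (both p = 0.0625, exact sign-flip test), and -175 to -123 µm when each section was left out, where 0.0625 is the smallest possible p with 5 sections. The distance to *Shh* cells was -197 µm with targets of at least 5 transcripts (exact p = 0.0625) and -281 to -164 µm when each section was left out. With targets of at least 1 transcript the distances were -59.2 µm to *Krtap17-1* cells (exact p = 0.00781) and -42.0 µm to *Shh* cells (exact p = 0.0234). The 75 genes of the PITX1+ against Control comparison became 29 with nuclear transcripts, 48 without the slide covariate, 35 on the female slide, 0 on the male slide (62 at an unadjusted p under 0.05 by edgeR), 31 at *Krt75* of at least 5 with no minimum, and 41 to 81 when each section was left out. The slide interaction gave 1 gene with DESeq2, 1 with nuclear transcripts and 0 to 3 when each section was left out. The 33 genes of the wound comparison became 69 with DESeq2, 19 at *Krt75* of at least 10, 0 with nuclear transcripts (32 at an unadjusted p under 0.05 by edgeR), 0 with members that held fewer than 2 transcripts of other cell types and 0 to 126 when each section was left out. The 27 genes of the male against female comparison became 57 with DESeq2, 58 with library size, 62 without a filter, 10 with nuclear transcripts and 0 to 76 when each section was left out. Single genes were followed over the settings for 46 called genes of the Control comparison, 22 of the wound comparison and 23 between the sexes. None of them changed sign, and other named genes were not followed. The largest changes among them were picked because their sections did not overlap, and some of these genes had no Control transcript. A change of sign could hardly have been seen in those, so its absence carries little weight. In the Control comparison 645 of 821 gene and setting pairs kept their call, in the wound comparison 132 of 220 and between the sexes 162 of 202. The calls of *Hist1h1b*, *Flg*, *Flt1*, *Plet1* and *S100a8* in the Control comparison, and of *Aldh1a3* and *Cnfn* in the wound comparison, were lost in most settings run. The cause was not tested. Cells with at least 10 *Krt75* transcripts could not be fitted against Control, which held 1, and patch size and the distances to *Krtap17-1* and *Shh* cells could not be compared between conditions. Few sections, the low transcript count of Control cells and conditions taken from position limit all comparisons.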

Other observations

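Whether a gene of a *Krt75* cell went with its position was examined for 6 genes and 2 targets, 12 relations in all, over 6 or 7 sections. *Krt75* cells with *Dlx3* lay nearer to *Krtap17-1* cells than those without it in 5 of 6 sections (median over sections 132 µm against 260 µm; exact sign-flip p = 0.0625, adjusted p = 0.75). *Krt75* cells with *Krt16* lay nearer to them in 5 of 6 sections (113 µm against 229 µm; exact p = 0.281, adjusted p = 0.938), and those with *Krt15* in 2 of 6. None of the 12 relations passed the test.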
